A study of Mus musculus with 17 samples.

Results

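The immediate-early stress response genes are 10 genes of the first transcriptional wave after a stimulus: Fos, Fosb, Jun, Junb, Egr1, Ier2, Ier3, Atf3, Nr4a1 and Dusp1. They were chosen by name, as the probe sets whose only gene symbol is on that list, and they are 10 of the 19752 genes that the arrays measured under a single symbol. Each is read by 1 probe set. All 10 were tested, and each was brighter than the dimmest 40% of the probe sets on all 17 arrays. The lowest value of a gene was 1.38 times that threshold for Ier3, 1.85 times for Ier2 and 3.72 to 24.5 times for the other 8.

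Immediate-early genes are transcribed within minutes of a stimulus, from promoters already bound by factors such as SRF with Elk partners and CREB, and need no new protein to do so. Growth factors, antigen receptor signals, heat, wounding and the dissociation of a tissue can all induce them. Their products are transcription factors that set the second wave of genes, and inhibitors such as Dusp1 that end the signal, and most of their mRNAs are short-lived.

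The cells were medullary thymic epithelial cells, stroma of the thymus that shows developing T cells the self-antigens of the rest of the body, and Aire is the regulator behind much of that expression. They came from C57BL/6 mice that all carried Adig, an Igrp-GFP reporter driven by Aire, so GFP reports on transcription at Aire, and Aire-knockout (KO) cells can be marked by it too. Cells without CD45 and Ly51 and with high MHC class II were separated on a MoFlo sorter by the presence (GFP+) or absence (GFP-) of the reporter. Adults were 5 weeks old, and perinates are given as 3 days old in the sample labels and as 0 to 3 days in the series text. There were 3 adult wild-type (WT) GFP- arrays (numbered 6, 7 and 8), 3 adult WT GFP+ arrays (6, 7 and 8), 3 adult KO GFP+ arrays (1, 2 and 3), 2 perinate WT GFP- arrays (1 and 2), 3 perinate WT GFP+ arrays (5, 6 and 7) and 3 perinate KO GFP+ arrays (1, 2 and 3). No KO GFP- cells were analysed here. The part of Aire that the knockout removes is not stated in the labels, and neither is whether a sample was 1 animal or a pool, so a p-value below reflects no more than the spread among these arrays, and that spread may be technical.

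The median intensity of an array lay between 144.5 and 157.1. Aire read 4072 to 6196 on the GFP+ arrays of either genotype and 270 to 930.1 on the GFP- arrays, and a probe set outside the removed part checks nothing about the knockout. The 8 markers of medullary epithelium summed to 23854 to 39723 over the arrays, against 728.5 to 1787 for 7 thymocyte markers, of which 2 to 4 were dim on every array of a group, and 685.3 to 1253 for 7 endothelial markers, of which 3 to 5 were. Sums were higher for 7 fibroblast markers (2053 to 5401) and ran from 839 to 7462 for 8 markers of dendritic cells and macrophages. All samples are labelled as of mixed sex, but Uty, a gene of the Y chromosome, was at 19.24 and 16.14 on arrays 2 and 3 of the perinate KO group and at 168.9 to 366.2 on all others. Xist was at 5203 and 5167 there and at 2104 to 4509 elsewhere. For the comparisons that use perinate KO cells, values without these arrays are given as well. In sorted populations such as these, fewer cells with a transcript and less transcript per cell cannot be told apart.

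Arrays of the same group differed far more in these genes than in most others. The standard deviation between arrays of a group, pooled over the 6 groups, was 0.95 on the log2 scale for Fosb, 0.95 for Nr4a1, 0.79 for Atf3 and 0.50 for Fos. The median over all 13842 tested genes was 0.16. That of Fosb was larger than in 99.9% of tested genes, as it was for Nr4a1 and Atf3, and that of Fos larger than in 99.1%. Ier2 (0.39), Dusp1 (0.38), Ier3 (0.31) and Egr1 (0.30) followed, and Junb (0.24) and Jun (0.21) varied least, yet all 10 lay above the median and 6 of 10 lay above the 95th percentile, 0.33.

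**Figure D1:**
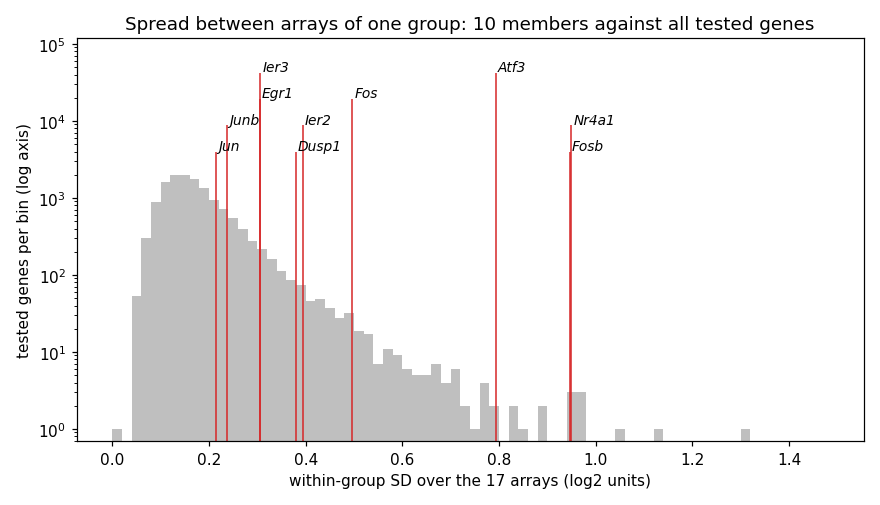
Standard deviation between arrays of the same group, pooled over the 6 groups, in log2 units, for each of the 10 genes, set against the distribution over the 13842 tested genes. Fosb, Nr4a1 and Atf3 lie between 0.79 and 0.95, beyond almost all genes, and Jun and Junb lie near the bulk, whose median is 0.16.

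The promoters of 8 of the 10 genes were found in RefSeq's table for build GRCm38.p6, and those of Egr1 and Ier2 were not matched. The last 150 bases before the transcription start are shown for the 4 genes with the largest spread between arrays, for Dusp1, and for Jun, whose spread was the smallest. They lie at chr12:85473740-85473889, plus strand (Fos), chr7:19310046-19310195, minus strand (Fosb), chr1:191183334-191183483, minus strand (Atf3), chr15:101266696-101266845, plus strand (Nr4a1), chr17:26508473-26508622, minus strand (Dusp1) and chr4:95052223-95052372, minus strand (Jun). Each is written 5′ to 3′ along its gene and ends at the base before the start. Capitals mark the core of the cAMP response element, the CREB and ATF binding motif, as TGACG or, on the other strand, CGTCA.
Fos: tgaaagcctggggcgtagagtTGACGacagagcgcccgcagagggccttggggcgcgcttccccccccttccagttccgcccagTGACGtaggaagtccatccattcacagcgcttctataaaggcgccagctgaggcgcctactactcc
Fosb: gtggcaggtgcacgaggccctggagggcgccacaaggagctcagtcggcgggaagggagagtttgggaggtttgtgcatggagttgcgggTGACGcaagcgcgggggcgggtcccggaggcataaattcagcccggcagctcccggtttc
Atf3: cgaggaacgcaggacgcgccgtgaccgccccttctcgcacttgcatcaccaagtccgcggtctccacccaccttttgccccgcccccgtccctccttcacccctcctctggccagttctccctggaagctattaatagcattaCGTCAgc
Nr4a1: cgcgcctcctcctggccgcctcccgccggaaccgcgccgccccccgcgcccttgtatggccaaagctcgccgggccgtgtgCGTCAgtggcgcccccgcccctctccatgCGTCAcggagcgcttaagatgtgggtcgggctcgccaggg
Dusp1: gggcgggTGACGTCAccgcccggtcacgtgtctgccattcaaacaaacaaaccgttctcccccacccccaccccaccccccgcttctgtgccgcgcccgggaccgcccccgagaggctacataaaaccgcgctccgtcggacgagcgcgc
Jun: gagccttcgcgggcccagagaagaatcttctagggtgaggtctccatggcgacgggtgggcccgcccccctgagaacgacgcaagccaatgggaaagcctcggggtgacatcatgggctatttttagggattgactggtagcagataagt
In the 250 bases before the start, searched on both strands, this core was found in 6 of the 8 promoters, those of Fos, Fosb, Junb, Atf3, Nr4a1 and Dusp1, and in 17.8% of the 32851 promoters in the table. Jun and Ier3 did not hold these letters. The full palindrome TGACGTCA, which contains the core on either strand, was found in Dusp1 alone, between bases -143 and -136, and in 1.55% of all promoters. The EGR motif (GCGGGGGCG or GCGTGGGCG) was found in Fosb and Nr4a1 and in 3.06% of all promoters. The AP-1 motif (TGACTCA or TGAGTCA) was found in 0 of the 8 and in 4.46% of all, and the CArG box, the SRF motif, in 0 of the 8 and in 1.47%. A match describes the letters of this window and not binding, and sites farther from the start were not searched. A count of 0 thus does not mean that a gene lacks the motif.

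Fos encodes a leucine-zipper protein that pairs with Jun proteins to form AP-1. Its intensity was 2046, 1559 and 2012 on adult GFP- arrays 6, 7 and 8, and 1586, 945.2 and 1008 on adult GFP+ arrays 6, 7 and 8. Adult KO arrays 1, 2 and 3 read 1868, 1269 and 1139, and perinate KO arrays 1, 2 and 3 read 1737, 621.7 and 677.2. Perinate GFP- arrays 1 and 2 read 2857 and 2186, and perinate GFP+ arrays 5, 6 and 7 read 986, 1514 and 724. By group mean the order was perinate GFP- (2522 ± 474, SD, n = 2), adult GFP- (1872 ± 272, n = 3), adult KO (1425 ± 389), adult GFP+ (1180 ± 354), perinate GFP+ (1075 ± 402) and perinate KO (1012 ± 629). The perinate GFP- arrays lay above all adult GFP- arrays, and every other pair of neighbours in this order overlapped.

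Fosb, a close relative of Fos, varied more. Adult GFP- arrays 6, 7 and 8 read 3853, 1883 and 2184, and the adult GFP+ arrays with the same numbers read 2716, 950.6 and 752.3. Adult KO arrays 1, 2 and 3 read 4042, 2321 and 1668, and perinate KO arrays 1, 2 and 3 read 3732, 775.7 and 738.5. In WT perinates, GFP- arrays 1 and 2 read 6854 and 2169, and GFP+ arrays 5, 6 and 7 read 2324, 3102 and 955.2. Within a group the brightest array exceeded the dimmest up to 5.05-fold, in perinate KO cells, and all neighbouring groups overlapped.

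Jun is the main partner of Fos and was the steadiest of the 10. It read 5279, 4793 and 6546 on adult GFP- arrays 6, 7 and 8, 4943, 3758 and 4547 on adult GFP+ arrays 6, 7 and 8, and 4968, 4142 and 4748 on adult KO arrays 1, 2 and 3. Perinate GFP- arrays 1 and 2 read 4055 and 5028, perinate GFP+ arrays 5, 6 and 7 read 2164, 3018 and 3341, and perinate KO arrays 1, 2 and 3 read 3201, 3626 and 3502. The 6 arrays of perinate GFP+ and perinate KO cells were thus the lowest 6 of the 17. Junb, which forms AP-1 dimers of weaker activity than Jun, ran from 625 on perinate KO array 2 to 1232 on adult GFP- array 6. Its group means ran from 1147 ± 47.4 (SD, n = 2) in perinate GFP- cells to 723.9 ± 124 (n = 3) in perinate KO cells, with every pair of neighbours overlapping.

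Atf3, a stress-induced transcription factor of the ATF and CREB family, read 5622, 2694 and 3882 on adult GFP- arrays 6, 7 and 8 and 4011, 1320 and 1544 on adult GFP+ arrays 6, 7 and 8. Adult KO arrays 1, 2 and 3 read 3048, 1767 and 2458, and perinate KO arrays 1, 2 and 3 read 2875, 575.3 and 695.6. Perinate GFP- arrays 1 and 2 read 5290 and 2921, and perinate GFP+ arrays 5, 6 and 7 read 2160, 3002 and 1161. Perinate KO array 1 was thus close to adult KO array 1, while arrays 2 and 3 were the lowest of all 17.

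Egr1, a zinc-finger transcription factor, read 3395, 2706 and 3032 on adult GFP- arrays 6, 7 and 8 and 3013, 1710 and 1899 on adult GFP+ arrays 6, 7 and 8. Adult KO arrays 1, 2 and 3 read 2717, 2120 and 2477, and perinate KO arrays 1, 2 and 3 read 2802, 1558 and 1634. The 2 perinate GFP- arrays read 4378 and 3333, and perinate GFP+ arrays 5, 6 and 7 read 2865, 2953 and 2732. The perinate GFP+ arrays were tightly grouped, and perinate KO array 1 lay among them while arrays 2 and 3 lay below every array of the other groups.

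Nr4a1 encodes the orphan nuclear receptor Nur77, a standard readout of antigen receptor signalling in T cells. Adult GFP- arrays 6, 7 and 8 read 1764, 695.1 and 932.1, and adult GFP+ arrays 6, 7 and 8 read 2071, 557.9 and 572.1. Adult KO arrays 1, 2 and 3 read 751.8, 429 and 1685, and perinate KO arrays 1, 2 and 3 read 1751, 369.9 and 375.8. Perinate GFP- arrays 1 and 2 read 4166 and 1755, and perinate GFP+ arrays 5, 6 and 7 read 2752, 1510 and 1403. The group order was perinate GFP- (2960 ± 1700, SD, n = 2), perinate GFP+ (1888 ± 750, n = 3), adult GFP- (1131 ± 561), adult GFP+ (1067 ± 869), adult KO (955.2 ± 652) and perinate KO (832.2 ± 796), and each neighbouring pair overlapped.

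Ier3, which encodes an early-response regulator of cell survival, read 402.4, 270.1 and 258.1 on adult GFP- arrays 6, 7 and 8 and 273.9, 214.1 and 192.1 on adult GFP+ arrays 6, 7 and 8. Adult KO arrays 1, 2 and 3 read 209.3, 162.6 and 217, and perinate KO arrays 1, 2 and 3 read 202.5, 143.8 and 136.7. The values were 751.5 and 489.8 on perinate GFP- arrays 1 and 2, and perinate GFP+ arrays 5, 6 and 7 read 155.4, 225.4 and 210.3. Both perinate GFP- arrays were above every other array of the study. Ier2, an early-response transcriptional regulator, ran from 205.9 on perinate GFP+ array 7 to 554 on perinate GFP- array 1, with all neighbouring groups overlapping.

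Dusp1 encodes a phosphatase that switches off the JNK, p38 and ERK kinases and so ends the signals that induce these genes. Its lowest value was 2431, on perinate KO array 3, and its highest 6969, on perinate GFP- array 1. Its group means fell in the order adult GFP- and perinate GFP- (5234 ± 818, SD, n = 3, and 5399 ± 2220, n = 2, ranked by log2 means), adult KO (4585 ± 809, n = 3), perinate GFP+ (3786 ± 751), adult GFP+ (3759 ± 1110) and perinate KO (3169 ± 1200). Neighbours in this order overlapped throughout.

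**Figure D2:**
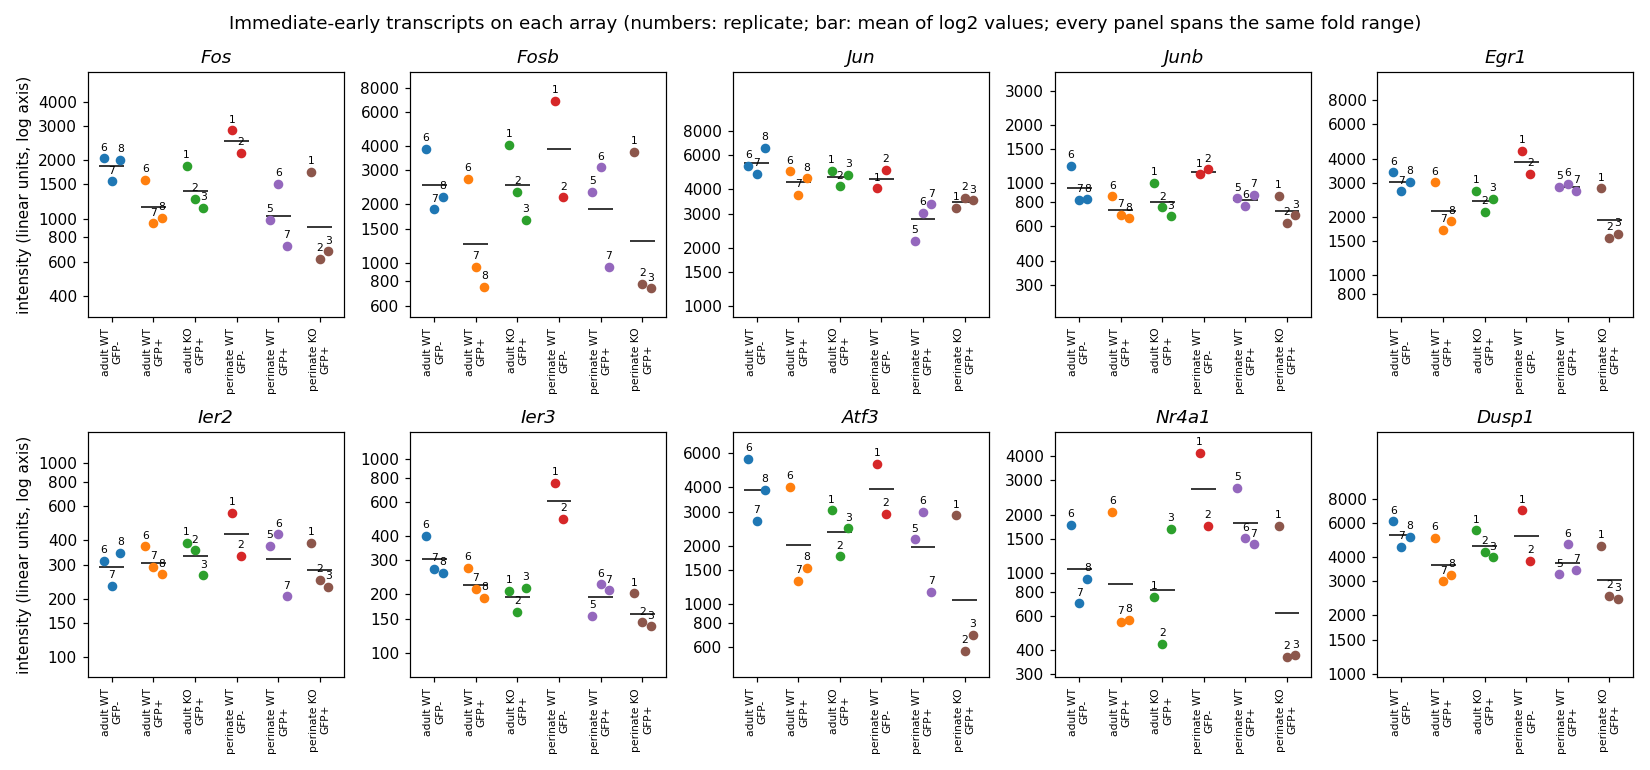
Intensity of each gene on each of the 17 arrays, on a log axis, with 1 panel per gene, 1 column of points per group numbered by array, and a bar at the mean of the log2 values. Ier3 stands out on the 2 perinate GFP- arrays (751.5 and 489.8), Jun is lowest on the perinate GFP+ and perinate KO arrays, and Fosb, Atf3 and Nr4a1 scatter widely within groups.

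Within a group, the genes tended to be high or low on the same arrays. Adult GFP+ array 6 was the highest of its group for 10 of the 10 genes, and for 30.9% of all tested genes. Adult GFP- array 6 was the highest for 8 of 10 (30.5% of all), with Jun and Ier2 highest on array 8. Perinate KO array 1 was the highest for 9 of 10 (35.7% of all), with Jun the exception. On perinate GFP+ array 6 it was 7 of 10 (36.1%), on adult KO array 1 8 of 10 (46.5%) and on perinate GFP- array 1 8 of 10 (61.4%, of only 2 arrays). In adult KO cells Nr4a1 and Ier3 were instead highest on array 3.

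Averaged over the 10 genes, the deviation from the group mean was largest on perinate KO array 1 and adult GFP+ array 6. Perinate KO array 1 exceeded the higher of arrays 2 and 3 by 4.81-fold for Fosb, 4.66-fold for Nr4a1, 4.13-fold for Atf3 and 2.57-fold for Fos, and read 0.883 times their higher value for Jun. These arrays 2 and 3 are the ones with low Uty (19.24 and 16.14, against 229.5 on array 1). Adult GFP+ array 6 exceeded the higher of arrays 7 and 8 by 3.62-fold for Nr4a1, 2.86-fold for Fosb, 2.60-fold for Atf3, 1.59-fold for Egr1 and 1.57-fold for Fos. Fosb, Nr4a1 and Atf3 led on both arrays. Perinate GFP- array 1 exceeded array 2, the only other array of its group, by 3.16-fold for Fosb, 2.37-fold for Nr4a1, 1.82-fold for Dusp1 and 1.81-fold for Atf3. The mean deviation was 0.75 on perinate KO array 1 and 0.58 on adult GFP+ array 6, in log2 units, and its lowest value was -0.39, on perinate KO array 2.

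**Figure D3:**
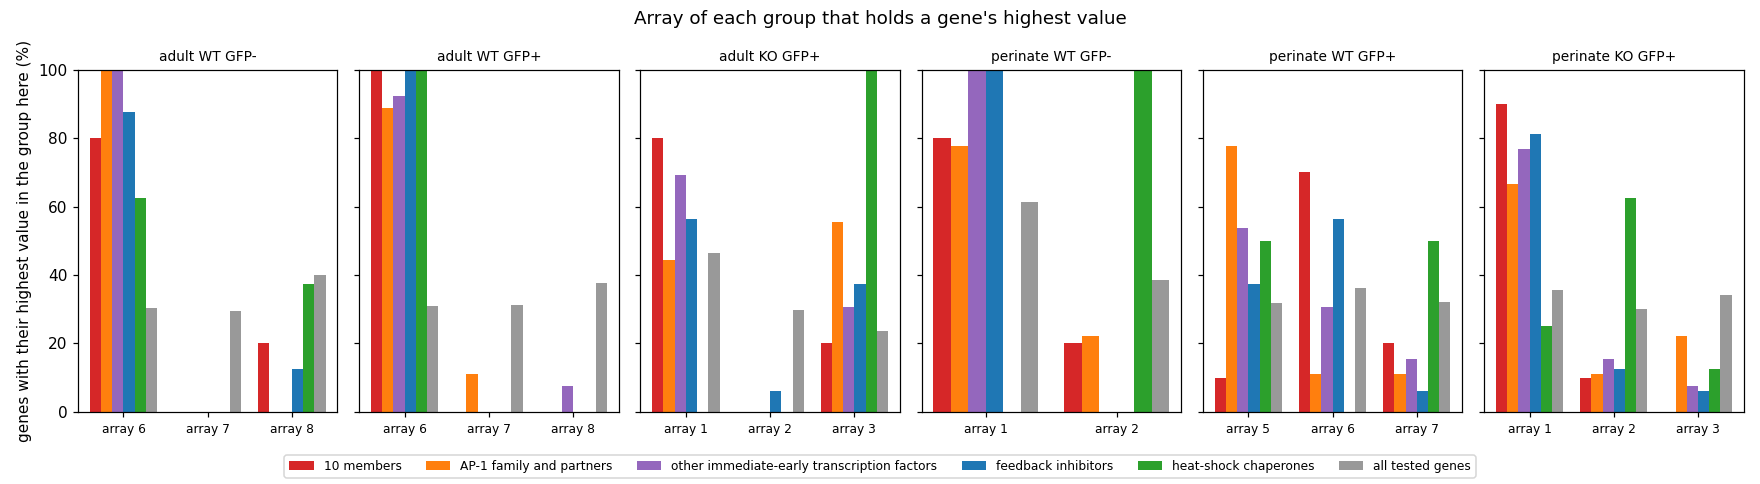
Share, in percent, of the 10 genes (members), of 4 related lists and of all tested genes whose highest value in a group lies on each array, with 1 panel per group. Array 6 of both adult WT sorts and array 1 of the perinate KO group hold the highest value of 8 to 10 of the 10 genes.

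Related early-response genes were high on some of the same arrays. Of 16 feedback inhibitors (Dusp, Zfp36, Btg, Spry and other genes that limit the signal or its transcripts), 16 were highest on adult GFP+ array 6, 14 on adult GFP- array 6, 16 on perinate GFP- array 1 and 13 on perinate KO array 1. Of 13 other immediate-early transcription factors (Egr2, Egr3, Klf4, Myc and relatives) it was 12, 13, 13 and 10. Of 9 further AP-1 genes it was 8, 9, 7 and 6. On perinate GFP+ array 6, which held the highest value of 7 of the 10 genes, it was 9 of 16 feedback inhibitors, 4 of 13 other factors and 1 of 9 AP-1 genes, while array 5 held 7 of the 13 and 7 of the 9. On adult KO array 1 it was 9 of 16, 9 of 13 and 4 of 9, with 5 of the 9 AP-1 genes highest on array 3. The heat-shock chaperones followed another pattern: all 8 were highest on adult GFP+ array 6, but 8 of 8 were highest on adult KO array 3 and on perinate GFP- array 2, and 2 of 8 on perinate KO array 1.

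Thymocyte transcripts moved with part of this pattern. The 5 thymocyte markers tested were all highest on adult GFP- array 6 (summed intensity 1535 of the 7 measured markers, against 794.5 and 847.9 on arrays 7 and 8), on adult GFP+ array 6 (1787 against 957.9 and 1167) and on adult KO array 3 (1670 against 966.8 and 892). Adult KO array 3 held the highest value of 2 of the 10 genes, Nr4a1 and Ier3, and the lowest of 5. On perinate GFP+ array 5, 4 of the 5 markers were highest (sum 1246), but only 1 of the 10 genes. On perinate GFP- array 1, 2 of the 5 markers and 8 of the 10 genes were highest. On perinate KO array 1, where 9 of the 10 genes were highest, 0 of the 5 thymocyte markers were, and the sum was 858.7 against 1088 and 1078. The part of thymocyte RNA in the differences between arrays was not tested.

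The genes outside the list whose course over the 17 arrays was nearest to the mean of the 10 were Slc25a25, a mitochondrial nucleotide carrier (root mean square difference 0.20 in log2 units), Zfp36l2, which destabilises mRNAs (0.24), the repressor Tgif1 (0.25), Ypel5 (0.25) and the syndecan Sdc4 (0.26). The median tested gene stood at 0.59. Nearest to Fos alone were Sdc4 (0.32), Slc25a25 (0.33) and Lrig3 (0.33), against a median of 0.69. These distances describe profiles that share arrays and say nothing of a common function.

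GFP+ and GFP- cells of adult WT mice were compared to ask how cells with and without the reporter differ. For 8 of the 10 genes the GFP+ array lay below the GFP- array of the same number in all 3 pairs, which held for 34.7% of all tested genes. Ier2 was lower in 1 of 3 pairs and Nr4a1 in 2 of 3. Fosb was 0.50, 0.99 and 1.54 log2 units lower in pairs 6, 7 and 8, and Atf3 was 0.49, 1.03 and 1.33 units lower. Fos was 0.37, 0.72 and 1.00 units lower.

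**Figure D4:**
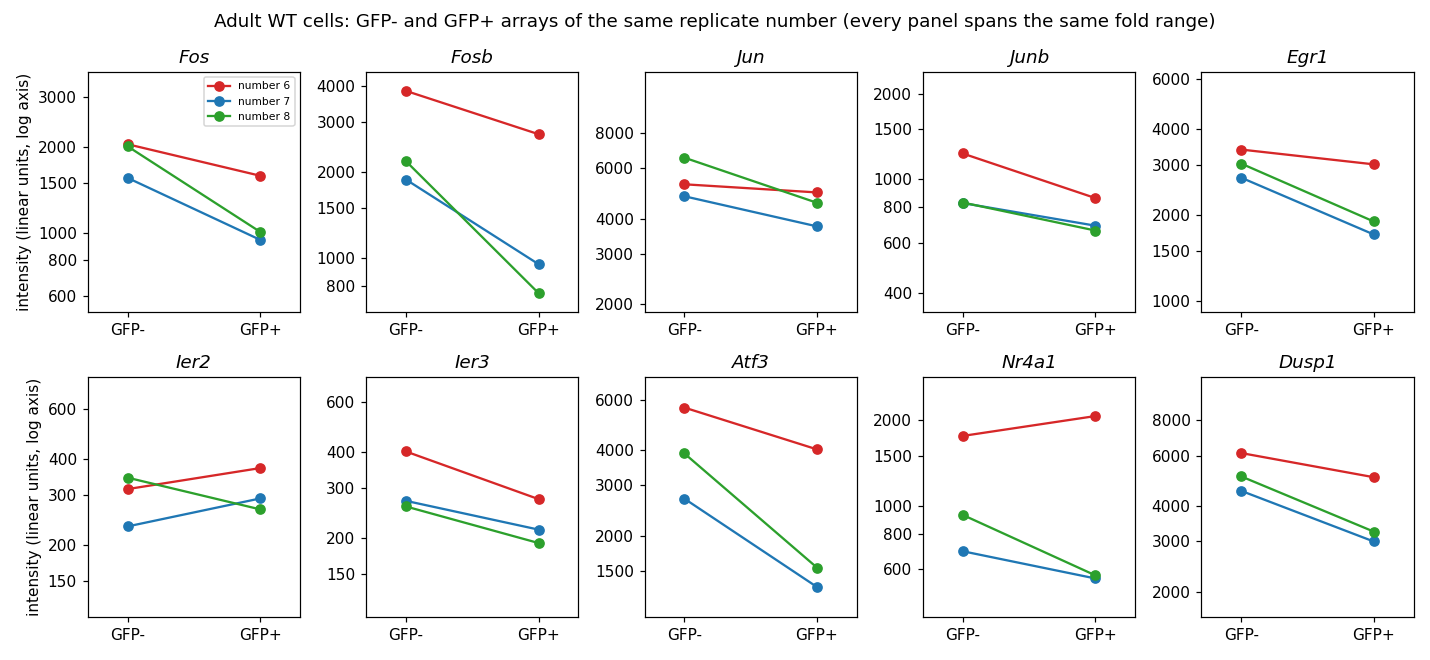
Intensity on the adult GFP- and GFP+ arrays of the same number, joined by a line, for each of the 10 genes, on a log axis. The lines fall from GFP- to GFP+ in all 3 pairs for 8 genes, while Ier2 and Nr4a1 rise in at least 1 pair.

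Whether these differences passed depended on the pairing. In the model of all 17 arrays without pairs, 0 of the 10 passed an adjusted p under 0.05 (limma, Benjamini-Hochberg over all tested genes), where 44.9% of all genes did, and 2 of the 10, Egr1 and Junb, had an unadjusted p under 0.05. The GFP+ and GFP- values of every gene overlapped, as none of the 10 belonged to the 56.1% of tested genes whose groups did not. With the array number as a block, 8 of the 10 were lower in GFP+ cells, where 24% of all tested genes were lower and 52.6% passed in either direction. The median log2 difference of the 10 was -0.47 and that of all tested genes 0.02.

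Among the AP-1 genes, the log2 differences (GFP+ minus GFP-, SE and adjusted p from the blocked fit) were -1.01 ± 0.17 for Fosb (0.00204), -0.70 ± 0.13 for Fos (0.00258), -0.37 ± 0.09 for Junb (0.0120) and -0.32 ± 0.11 for Jun (0.0344). Without the block these 4 had adjusted p of 0.209, 0.106, 0.0955 and 0.113, at the same differences. Atf3 differed by -0.95 ± 0.15 (blocked adjusted p = 0.00139, unblocked 0.161). Egr1 differed by -0.50 ± 0.12 (0.00918, unblocked 0.0687), Ier3 by -0.44 ± 0.09 (0.00484, unblocked 0.111) and the phosphatase Dusp1 by -0.51 ± 0.10 (0.00441, unblocked 0.130). Nr4a1 differed by -0.26 ± 0.16 (0.207, unblocked 0.759) and Ier2 by 0.07 ± 0.14 (0.707, unblocked 0.858), and neither passed either fit. The blocked fit holds only 3 pairs, so its standard errors lean on a spread that limma borrows from all tested genes. For Fosb the pairs differed by -0.50, -0.99 and -1.54, a wider spread than its standard error of 0.17 shows.

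Leaving out arrays changed which genes passed. The shares of all tested genes in these reduced fits are not given here, so their counts cannot be set against all genes. Without adult GFP+ array 6 the unblocked model called 3 of the 10 lower: Egr1 (-0.75 ± 0.21, adjusted p = 0.00895), Atf3 (-1.45 ± 0.54, 0.0461) and Dusp1 (-0.74 ± 0.27, 0.0435). In the blocked fit without pair 6, 7 or 8, Fos, Fosb, Egr1, Ier3, Atf3 and Dusp1 passed each time. These fits hold fewer pairs still, so passing leans on the borrowed spread and does not measure agreement between pairs. Without pair 7 the Fosb pairs were at -0.50 and -1.54, and the fit gave a standard error of 0.18. Junb did not pass without pair 6, nor Jun without pair 7 or pair 8, while Nr4a1 passed without pair 6 (-0.51 ± 0.13) and Ier2 without pair 8 (0.29 ± 0.10, higher in GFP+ cells).

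Perinate GFP+ and GFP- WT cells were compared in the same way. All 10 genes had a lower mean log2 level in GFP+ cells, and 3 of 10 passed the test, all lower, where 20.5% of all tested genes were lower and 43.5% passed in either direction. Ier3 fell the most, by 1.64 ± 0.24 log2 units (3.12-fold, adjusted p = 3.53e-05). Fos fell by 1.28 ± 0.38 (2.44-fold, 0.0112) and Jun by 0.69 ± 0.18 (1.62-fold, 0.00486). The GFP+ arrays lay below both GFP- arrays for 5 of 10 genes, these 3 with Junb and Egr1, as for 27.6% of all tested genes.

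The remaining 7 did not pass. Their log2 differences were -0.47 ± 0.19 for Junb (adjusted p = 0.0591), -0.42 ± 0.24 for Egr1 (0.173), -1.0 ± 0.60 for Atf3 (0.191) and -0.47 ± 0.29 for Dusp1 (0.219). Fosb differed by -1.02 ± 0.71 (0.266), Ier2 by -0.42 ± 0.31 (0.291) and Nr4a1 by -0.59 ± 0.71 (0.535). Fosb and Atf3 differed by about as much as in adults, with standard errors several times those of the paired adult fit. The comparison rests on 2 GFP- arrays: without array 1 Fos no longer passed (-1.09 ± 0.49, 0.0928), nor Jun without array 2 (-0.54 ± 0.22, 0.0730), whereas Ier3 passed without either (-1.33 and -1.95).

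The difference between GFP+ and GFP- cells was itself compared between ages. Of the 10 genes 1 passed, Ier3, where 9.28% of all tested genes passed in that direction and 20% in either. Its GFP difference was 1.20 ± 0.33 log2 units more negative in perinates (-1.20, adjusted p = 0.0149). Without perinate GFP- array 1 it was -0.89 and did not pass (adjusted p = 0.0979). The other 9 did not pass, with adjusted p of 0.316 to 0.996.

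Other genes of the early response were counted from lists. In adults, 20.1% of all tested genes were lower in GFP+ cells without the block. The median log2 difference was -0.52 for the feedback inhibitors, -0.20 for the other immediate-early factors, -0.10 for the AP-1 genes, -0.39 for the secreted products and 0.05 for the upstream genes, against 0.02 for all tested genes. By count, 6 of 16 feedback inhibitors were lower in GFP+ cells and 2 higher (10 and 3 with the block), among them the mRNA-decay factor Zfp36l1 (-1.70), the ERK phosphatase Dusp6 (-1.42) and Nfkbiz (-1.12), with Spry2 (0.79) and Nfkbia (0.45) higher. Of 13 other immediate-early factors 3 were lower and 0 higher (6 and 0 with the block): Egr3 (-1.43), Klf4 (-1.27) and Egr2 (-1.01). Of 9 AP-1 genes 2 were lower and 0 higher, Fosl2 (-1.23) and Jund (-0.64), the same 2 with the block. Of 6 tested genes for secreted early products 2 were lower, the matricellular Ccn1 (-1.07) and Ccn2 (-0.65), and with the block 3 were lower and 2 higher. Of 9 tested upstream genes 3 were lower, the serum response factor Srf (-0.61), its partner Elk1 (-0.41) and the p38 kinase Mapk14 (-0.57), and 1 higher, Creb1 (0.61).

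In perinates 5 of 16 feedback inhibitors were lower and 3 higher in GFP+ cells. Zfp36l1 (-1.98), Socs3 (-1.73) and Dusp6 (-1.60) differed most. Of the 13 other factors, 3 were lower, Klf10 (-1.20), Egr3 (-1.03) and Myc (-1.02), and 0 were higher. No further AP-1 gene passed. Ccn1 (-1.71) and Ccn2 (-0.82) were lower, while Cxcl2 (1.54), a neutrophil chemokine, and Ptgs2 (1.26), the inducible prostaglandin synthase, were higher. Of 9 upstream genes 4 were lower, with Mapk14 (-0.89), Srf (-0.67) and Elk1 (-0.57) the largest. The medians were -0.52 for the feedback inhibitors, -0.31 for the other factors, -0.27 for the AP-1 genes, -0.41 for the secreted products and -0.22 for the upstream genes, against 0 for all tested genes. The heat-shock chaperones were split, 3 of 8 higher and 1 lower in perinates and 0 of 8 in adults without the block (2 higher and 2 lower with it).

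Markers of cell types differed with the same sort. The 6 measured markers of immature or basal medullary epithelium summed to 9670 to 14411 on the adult GFP- arrays and 6179 to 7569 on the GFP+ arrays, with 3 of 6 lower in GFP+ cells, and to 17973 to 17992 and 7425 to 13131 in perinates, with 4 of 6 lower. The 7 cortical markers summed to 4499 to 4897 in adult GFP- and 7601 to 8566 in GFP+ cells. There 3 of 7 were higher in GFP+ cells (Ccl25, Dll4 and Enpep) and 1 lower (Cxcl12), with a median of 0.15. Psmb11 (0.12), Prss16 (-0.11) and Ly75 (0.15) did not pass, and 2 of the 7 were dim on every adult GFP+ array. In perinates the 7 summed to 6525 to 7112 and 4760 to 6970, where 5 of 7 were lower and 2 higher in GFP+ cells. The 8 markers of dendritic cells and macrophages summed to 4997 to 6020 and 7297 to 7462 in adults and to 839 to 1084 and 4430 to 5239 in perinates, with 5 of 6 tested higher in GFP+ cells at both ages. None of the 6 immature or basal markers was dim on all arrays of a group. Of 7 fibroblast markers 3 were higher and 0 lower in GFP+ cells at each age. Between adult KO and WT GFP+ cells 2 of these 7 were higher and 2 lower in KO. Against WT, adult KO GFP+ cells had 4 of the 6 tested dendritic cell and macrophage markers lower and 1 higher. The median KO difference of these markers was -0.45 in adults and -0.14 in perinates (-0.24 without perinate KO arrays 2 and 3). Whether these transcripts came from such cells or from the epithelium was not tested. The part of the marked cell types in the differences of the 10 genes was not tested either.

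WT GFP+ cells of perinates and adults were compared for a change with age. Of the 10 genes 1 passed, Jun, lower in perinates by 0.65 ± 0.16 log2 units (-0.65, 1.57-fold, adjusted p = 0.00856), where 13.6% of all tested genes were lower and 22.2% passed in either direction. Its perinate arrays lay below every adult array, as for 21.8% of tested genes. The difference passed without each array in turn, at -0.47 to -0.78. Nr4a1 (1.05 ± 0.64, adjusted p = 0.252), Fosb (0.61 ± 0.63, 0.525) and Egr1 (0.41 ± 0.22, 0.181) did not pass. Without adult GFP+ array 6, Egr1 passed as well, higher in perinates (0.66 ± 0.21, 0.0373). The median of the 10 was 0.05 and that of all tested genes 0.

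In WT GFP- cells 1 of the 10 passed with age, where 22.2% of all tested genes were higher in perinates and 46.4% passed in either direction. This was Ier3, higher in perinates by 1.00 ± 0.24 (2.00-fold, adjusted p = 0.00287). Without perinate GFP- array 1 it was 0.69 and did not pass (0.0706). Fos (0.43 ± 0.38, adjusted p = 0.377) also had no overlap between the ages but did not pass. These 2 are the only ones of the 10 that lay wholly above the adult arrays, as did 30.4% of tested genes. Nr4a1 had the largest difference, 1.37 ± 0.71, and did not pass (0.127), although it did in a fit of these 2 groups alone (adjusted p = 0.0354).

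KO GFP+ cells of the 2 ages gave 0 of 10 calls, where 26% of all tested genes passed, and 3 of the 10 (Jun, Atf3 and Dusp1) had an unadjusted p under 0.05. All 10 had lower mean log2 levels in perinates, with a median of -0.40 against -0.01 for all tested genes. Atf3 differed by -1.17 ± 0.53 (adjusted p = 0.118), Fosb by -0.96 ± 0.63 (0.293), Fos by -0.63 ± 0.34 (0.190), Dusp1 by -0.58 ± 0.26 (0.116) and Jun by -0.42 ± 0.16 (0.0636). Only Jun had no overlap between the ages, as did 23.2% of tested genes in that direction. The count turned on the 3 perinate arrays. The share of all tested genes is not given here for the fits that leave some of them out. Without perinate KO array 1, 4 of the 10 passed, among them Atf3 (-1.90 ± 0.46, 0.00948), Fos (-1.10 ± 0.28, 0.0136) and Dusp1 (-0.88 ± 0.25, 0.0251), with Egr1 the fourth. With array 1 alone, in place of all 3 and assumed to vary like the other groups, 0 passed, and Atf3 (0.28), Fos (0.32), Fosb (0.58) and Dusp1 (0.01) had the opposite sign, while Jun kept its own (-0.52).

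Genes of the related lists were counted for age as well. Of all tested genes 46.4% passed in GFP-, 22.2% in WT GFP+ and 26% in KO cells, and the counts below stand against these shares. In the same order the median was 0.37, 0.56 and -0.03 for the feedback inhibitors and 0.04, 0.23 and -0.24 for the other factors. In GFP- cells 5 of 16 feedback inhibitors were higher in perinates and 1 lower, with Socs3 (1.84), Zfp36l1 (1.59) and Dusp6 (1.44) leading. In WT GFP+ cells 3 of 16 were higher, Zfp36l1 (1.31), Spry4 (0.99) and Sik1 (0.64), and in KO cells Zfp36l1 was higher (1.13) and Nfkbia lower (-0.71). Npas4 and Ier5 were lower in perinates in GFP- (-0.97 and -1.05) and WT GFP+ cells (-1.05 and -0.69), with Klf10 (1.16) and Myc (0.94) higher in GFP- cells. In KO cells Klf6 (-0.88), Ier5 (-0.59) and the AP-1 gene Batf3 (-0.44) were lower. Cxcl2 was lower in perinates in GFP- (-2.50), WT GFP+ (-1.79) and KO cells (-2.21), as was Ptgs2 (-1.67, -0.90 and -1.05).

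Of 9 tested upstream genes, 5 were higher in perinate GFP- cells and 0 lower, with Elk4 (0.61), Elk3 (0.44) and Elk1 (0.39), partners of SRF, differing most. Of all tested genes 22.2% were higher in perinate GFP- cells. In WT GFP+ cells Mapk9 was lower (-0.39), and in KO cells Mapk9 was lower (-0.35) and Elk4 higher (0.33). The median of the 9 was 0.35 in GFP-, 0.19 in WT GFP+ and 0.06 in KO cells.

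Of 8 heat-shock chaperones, 6 were lower in perinates in GFP- cells (24.2% of all tested genes), 4 in WT GFP+ cells (13.6%) and 3 in KO cells (12.7%), and 0 were higher. Their median differences were -1.19, -1.29 and -0.79. The stress-inducible Hsph1 differed by -2.35, -2.18 and -1.65 and the co-chaperone Dnajb1 by -1.40, -2.03 and -1.47. The immature and basal epithelial markers were higher in perinates, 4 of 6 in GFP- cells, 2 of 6 in WT GFP+ cells and 5 of 6 in KO cells. Of 7 cortical markers, 4 were higher and 1 lower in perinate GFP- cells, led by Cxcl12 (2.88), Prss16 (2.81) and Psmb11 (1.90), while 0 were higher and 3 lower in WT GFP+ cells and 0 higher and 2 lower in KO cells. Of 6 tested markers of dendritic cells and macrophages, 5 were lower in perinate GFP- cells, with Lyz2 at -4.46, 4 in WT GFP+ cells and 2 in KO cells, and 0 were higher. Of 8 medullary markers, 5 were lower in perinate GFP- cells. Of 7 fibroblast markers, 2 were higher and 1 lower in perinate GFP- cells, and 4 were higher and 0 lower in WT GFP+ cells. What these cell types contribute to the age differences of the 10 genes, that of Ier3 in GFP- cells included, was not tested.

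For age in KO cells, the named list genes were also fitted without perinate KO arrays 2 and 3, with the same assumption. Zfp36l1 (1.60), Cxcl2 (-2.22), Ptgs2 (-1.15) and Dnajb1 (-1.93) still passed. Nfkbia (-0.63), Klf6 (-0.31), Ier5 (-0.69), Batf3 (-0.40), Mapk9 (-0.32), Elk4 (0.43) and Hsph1 (-2.22) did not. Of the immature and basal markers 4 of 6 were higher.

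KO and WT GFP+ cells were compared at each age for a dependence on Aire. In adults 0 of the 10 genes passed, and 0 had an unadjusted p under 0.05 (limma), where 19.9% of all tested genes passed. Fosb had the largest difference, 1.00 ± 0.63 log2 units (KO minus WT, adjusted p = 0.295), the 10 ran from -0.20 to 1.00, and their median was 0.16 against 0.06 for all tested genes. Every gene overlapped between the genotypes, whereas 40.3% of tested genes did not.

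In perinates 0 of the 10 passed either, where 26.5% of all tested genes did, and 2 of the 10 (Egr1 and Nr4a1) had an unadjusted p under 0.05. Nr4a1 differed by -1.53 ± 0.64 (adjusted p = 0.0850), Atf3 by -0.90 ± 0.53 (0.220), Egr1 by -0.57 ± 0.22 (0.0623) and Jun, the 1 gene with a positive difference, by 0.30 ± 0.16 (0.177). All 10 overlapped between genotypes, against 43.1% of tested genes that did not, and the median was -0.30 against 0.09 for all tested genes. Without perinate KO array 1, 3 of 10 were lower in KO cells: Nr4a1 (-2.27, adjusted p = 0.0121), Atf3 (-1.63, 0.0167) and Egr1 (-0.84, 0.00581). The share of all tested genes that passed in that fit is not given here. With array 1 alone, 0 passed, and the differences were -0.04 for Nr4a1, 0.55 for Atf3 and -0.02 for Egr1. Perinate KO arrays 2 and 3, on which the lower values rest, are also the arrays with low Uty and high Xist, and what that shares with the low values was not tested.

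**Figure D5:**
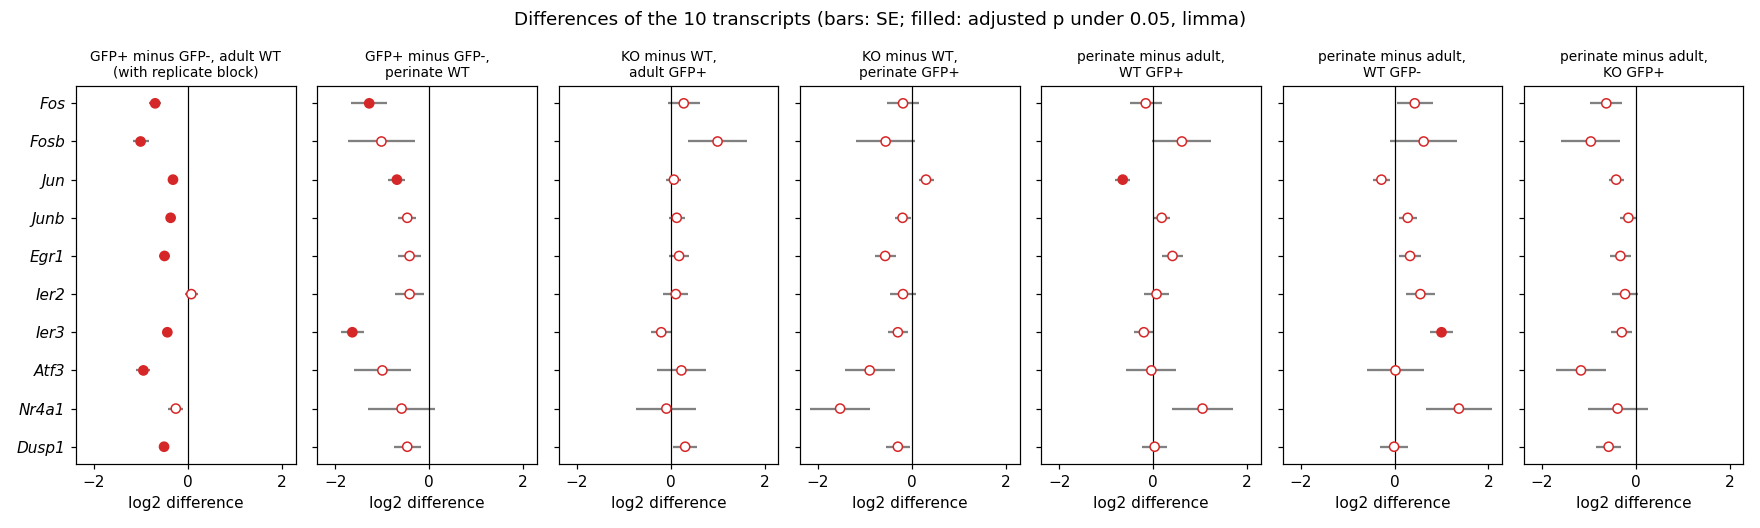
Log2 difference of each gene in the comparisons of sort, age and genotype, with bars of 1 standard error, from the blocked fit for the adult sorts and otherwise from the model of all 17 arrays, and filled points where the adjusted p was under 0.05. Ier3, Fos and Jun pass for GFP+ against GFP- perinate cells, 8 genes pass for the adult sorts with the block, and no point is filled for KO against WT.

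The KO difference did not pass between ages for any of the 10 genes (limma), where 1.21% of all tested genes passed, and 1 of the 10, Egr1, had an unadjusted p under 0.05. Without perinate KO arrays 2 and 3, 0 of the 10 passed, at differences of -0.21 to 0.48. Few genes of the related lists passed for genotype. In adult KO cells Spry2 was higher (0.91) and Dusp2 lower (-0.44) among 16 feedback inhibitors, 0 of 13 other immediate-early factors and 0 of 9 AP-1 genes passed, the kinase gene Mapk9 was higher (0.38) and the small chaperone Hspb1 was lower (-1.41). In perinate KO cells Nr4a3 (-1.86) and Egr4 (-0.32) were lower among the 13 factors, Spry2 was higher (0.79), Ccn2 was lower (-0.42), and Creb1 (0.47) and Mapk9 (0.41) were higher. Spry2 and Mapk9 were higher in KO cells at both ages, in comparisons with separate arrays but 1 shared estimate of the spread. The share of all tested genes higher at both ages is not given here. Without perinate KO arrays 2 and 3, none of these 6 passed in perinates: Nr4a3 was at -0.85 (adjusted p = 0.458), Egr4 at -0.28, Spry2 at 0.62 (0.226), Ccn2 at -0.47, Creb1 at 0.25 and Mapk9 at 0.45 (0.104).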

How the data were processed

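RNA of 17 samples was measured on whole-transcript mouse gene arrays from Affymetrix (design version 1.0), 1 array per sample. The authors deposited linear intensities per probe set, for which the submitters' processing notes name Affymetrix Power Tools and RMA, a method that corrects background, normalizes arrays and summarises probes. Tool versions, filters and which arrays were normalized as a set: not given in the sources used here. Between-array normalization can shift a gene that changes together with many others.

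The table's 24922 probe sets were named through the platform annotation, and 21425 had 1 symbol. Of several probe sets per gene the one with the highest mean was kept, which gave 19752 genes, and the 13842 above the 40th percentile of an array (96.16 to 112.1) on at least 2 arrays were tested. The log2 of the intensities, with no pseudocount, was fitted with limma 3.58.1 in R 4.3.3 as 6 group means over the 17 arrays (11 residual degrees of freedom, prior 5.52). There were 9 comparisons, with p-values adjusted by Benjamini-Hochberg over all tested genes and a threshold of 0.05. Differences are GFP+ minus GFP-, perinate minus adult and KO minus WT. The number of arrays limits the precision, with a standard error of 0.13 log2 units for the median gene where 3 arrays met 3. The steps were tested on simulated data.

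Groups and array numbers came from the sample labels alone. The adult WT GFP- and GFP+ arrays share the numbers 6, 7 and 8. The labels do not say what a number marks, but same-numbered arrays deviated together from their group means, with correlations across genes of 0.503, 0.443 and 0.188, so the number was also fitted as a block on these 6 arrays. The choice of this block thus rests on the same values that it was used to test. Every gene of the report's group was named. From the early-response lists, genes that passed for sort, age or genotype without a block were named, at least the 3 largest differences where more than 3 passed. Heat-shock chaperones and cell type markers that passed were named only in part. Genes near in profile were ranked by the root mean square difference of centred log2 values. The group's members and the lists were chosen with earlier results of these data known. Alternatives covered the normalization, an offset of 50, the filter on dim probe sets, the choice of probe set, the prior, array weights, the arrays fitted, the block and the omission of arrays. Promoter motifs were searched as letters in RefSeq sequence of GRCm38.p6.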

Additional observations from a re-analysis of the deposited data

Results flagged for a closer look

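The difference of Ier3 between GFP+ and GFP- cells was not the same at the 2 ages by the test of that difference itself, at -1.20 ± 0.33 log2 units (perinate minus adult, limma, adjusted p = 0.0149, 1 of the 10 genes). Of all tested genes 9.28% passed in that direction and 20% in either, so 1 of 10 is near the general share. Ier3 was 1.64 units lower in GFP+ cells of perinates (-1.64) and 0.44 units lower in those of adults (-0.44), and the 2 perinate GFP- arrays read 751.5 and 489.8 against 258.1 to 402.4 in adult GFP- cells. Without perinate GFP- array 1 the difference between ages was -0.89 and did not pass (adjusted p = 0.0979), and without array 2 it was -1.51 and passed (0.00855). In the same test 6 of 7 cortical epithelial markers passed, all lower, with a median of -1.63, among them Cxcl12 (-2.75), Prss16 (-2.19) and Psmb11 (-1.76), and these differences rest on the same 2 perinate GFP- arrays. Other markers went the other way: 3 of 8 medullary markers passed, all higher, and 2 of 6 tested dendritic cell and macrophage markers, with Lyz2 at 3.81. Of 6 immature or basal markers 1 was lower, and 1 of 7 fibroblast and 1 of 4 tested endothelial markers were higher. The part of the marked cell types in the Ier3 difference was not tested. The groups held 2 or 3 arrays, too few for the check on single outlying arrays.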

How the results depend on the processing

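Of the 10 genes, the counts that pass in adult KO cells (0) and between GFP+ and GFP- perinate cells (3) stayed within 1.5 times under all alternatives run, the latter at 2 to 3 without each array. With quantile normalization 4 genes (Jun, Junb, Egr1 and Dusp1) passed between the adult sorts, 1 (Egr1) for KO in perinates and 1 (Jun) for age in KO cells. Array weights gave 3 calls for KO in perinates (Egr1, Atf3 and Nr4a1), 1 for the KO difference between ages (Egr1), 1 between the adult sorts (Egr1) and 6 for age in KO cells. Fitting only the groups compared gave 1 between the adult sorts (Fos), 2 for age in GFP- cells and 1 for age in KO cells. Without each array in turn the counts ran from 0 to 3 for KO in perinates, 0 to 3 between the adult sorts, 0 to 1 for the GFP difference between ages, 1 to 2 for age in WT GFP+ cells, 0 to 1 for age in GFP- cells and 0 to 4 for age in KO cells. The shares of all tested genes under these alternatives are not given here, so the counts cannot be set against them. The cause of these changes was not tested.

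The replicate block gave 8 calls between the adult sorts, all lower, where 24% of all tested genes were lower and 52.6% passed in either direction. In fits chosen after seeing the data, it gave 8 with quantile normalization, 8 with arrays centred on their median, and 8, 7 and 8 without pair 6, 7 and 8. With so few pairs, these fits lean on the spread borrowed from all tested genes. The shares of all tested genes that passed in the added fits are not given here. The other shared numbers were not taken as pairs, although WT GFP+ array 7 across ages, at 0.189, was level with adult pair 8, at 0.188. The KO arrays numbered 1, 2 and 3 at both ages deviated together at 0.049, 0.039 and 0.059, and their block gave 5 calls with age (Fos, Fosb, Jun, Atf3 and Dusp1). The share of all tested genes in that fit is not given here, so the 5 calls cannot be set against it. WT GFP+ arrays 6 and 7 of both ages, at 0.033 and 0.189, gave 0 calls, with Jun at -0.44 on 4 arrays.

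Some signs turned. Ier2 between the adult sorts ran from -0.10 to 0.18 without each array, and with the block was -0.02 without pair 6 and -0.06 without pair 7. Nr4a1 between the sorts lay at -0.89 to 0.11 (adults) and -1.21 to 0.04 (perinates). Without perinate KO arrays 2 and 3, Atf3 for KO in perinates was 0.55, and for age in KO cells Fos was 0.32, Fosb 0.58, Atf3 0.28 and Dusp1 0.01. For age in KO cells, where all 10 lay below 0, the highest difference was 0.01 without adult KO array 1 and 0.14 without array 3. Groups held 2 or 3 arrays, and the lowest value of Ier3 was 1.38 times the dim threshold.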
